A study of Mus musculus with 10 samples.

Results

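The enzymes studied here make and break down the eicosanoids, the oxygenated lipids derived from arachidonic acid that include the prostaglandins and leukotrienes. All 10 gene symbols of the set were found in the deposited table of 12535 genes, namely Ptgs1, Ptgs2, Ptges, Hpgds and Hpgd of the prostaglandin branch and Alox5, Alox5ap, Lta4h, Ltc4s and Alox15 of the lipoxygenase branch. They were chosen by symbol. RNA of sorted mouse macrophages had been sequenced in 10 libraries of 3 groups. The cells were sorted as positive for CD45, CD11b and F4/80, the surface markers of leukocytes, myeloid cells and macrophages. The cKO-labelled tumour-associated macrophages (TAM, n = 3) came from C57/BL6 mice labelled Ahr fl/fl Lys M. In such mice the Cre recombinase carried by the Lyz2 (LysM) locus, which is active in macrophages, monocytes and neutrophils, is meant to delete the gene of the aryl hydrocarbon receptor. Control TAM (n = 3) came from C57/BL6 Ahr fl/fl mice. Both TAM groups were taken 14 days after orthotopic implantation of MT4, a single organoid line of the KPC mouse model of pancreatic adenocarcinoma. Resident macrophages (n = 4) came from the healthy pancreas of C57/BL6 WT mice, so that this group differs from control TAM in the floxed allele as well as in the tumour.

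Cyclooxygenases, encoded by Ptgs1 and Ptgs2, turn arachidonic acid into prostaglandin H2, from which Ptges makes prostaglandin E2 and Hpgds makes prostaglandin D2, while Hpgd oxidises prostaglandins and so ends their activity. In the other branch the 5-lipoxygenase Alox5 works with its membrane partner Alox5ap to make leukotriene A4, which Lta4h turns into leukotriene B4, an attractant of neutrophils, and Ltc4s into the cysteinyl leukotriene C4. Alox15 makes 12- and 15-hydroxylated products and is a known marker of mouse peritoneal macrophages and of eosinophils.

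Values are FPKM, read fragments scaled to gene length and library size, as deposited, and changes are differences in log2(FPKM + 1) with their standard error (SE), from a limma fit to all 10 libraries with Benjamini-Hochberg adjustment over the 11127 genes tested. A gene was called at an adjusted p under 0.05. The read depth recovered from the low values was 10125937 to 25620379 reads per library. The libraries of a group lay close together, with a coefficient of variation of 0.579% to 14.0% for the 10 genes, and the p-values measure only the spread between these libraries, which may be partly technical. Ahr itself was at 10.2, 11.2 and 9.65 FPKM in the cKO-labelled libraries, against 7.11, 6.91 and 7.51 FPKM in control TAM. Its mean was thus higher in the cKO-labelled group (log2 change 0.47 ± 0.07, adjusted p = 0.000108), which goes against the label, although a gene-level value also counts exons outside the deleted part and does not check the deletion. Lyz2, whose locus carries the Cre, averaged 11460 ± 203 FPKM in cKO-labelled TAM and 19904 ± 85.1 FPKM in control TAM (SD, n = 3 each). The macrophage genes Csf1r, Adgre1 and Cd68 were present in every group, with Adgre1, which encodes F4/80, at a mean of 497 FPKM in cKO-labelled TAM, 590 FPKM in control TAM and 706 FPKM in resident macrophages. In the same order of groups, Csf1r averaged 454, 534 and 1238 FPKM and Cd68 1035, 1014 and 920 FPKM. Itgam, which encodes CD11b, averaged 59.7, 75.9 and 31.4 FPKM, so these genes did not differ between the groups in 1 direction. Since these are bulk libraries, fewer cells of a type and less RNA per cell cannot be told apart.

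Sequences before the gene start are shown for the prostaglandin genes whose RNA differed most between tumour and healthy pancreas, Ptgs2 and Ptges, which were about 10 times higher in control TAM, and Hpgd and Hpgds, which were far lower. They are the 250 bases before the RefSeq start of each gene in GRCm38.p6, written 5′ to 3′ on the gene's strand, and capitals mark GCGTG on either strand (CACGC where it lies on the other strand), the core of the element bound by the aryl hydrocarbon receptor.
Ptgs2, chr1:150099781-150100030, plus strand: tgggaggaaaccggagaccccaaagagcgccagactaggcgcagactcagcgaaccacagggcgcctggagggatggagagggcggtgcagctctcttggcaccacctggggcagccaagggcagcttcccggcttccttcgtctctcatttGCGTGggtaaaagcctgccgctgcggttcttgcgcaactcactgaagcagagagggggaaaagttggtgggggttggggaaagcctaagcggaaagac
Ptges, chr2:30903298-30903547, minus strand: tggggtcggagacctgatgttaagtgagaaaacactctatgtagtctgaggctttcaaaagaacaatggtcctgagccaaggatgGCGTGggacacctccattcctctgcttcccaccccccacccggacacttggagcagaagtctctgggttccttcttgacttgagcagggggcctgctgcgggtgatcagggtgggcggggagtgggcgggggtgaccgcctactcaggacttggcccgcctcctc
Hpgd, chr8:56294302-56294551, plus strand: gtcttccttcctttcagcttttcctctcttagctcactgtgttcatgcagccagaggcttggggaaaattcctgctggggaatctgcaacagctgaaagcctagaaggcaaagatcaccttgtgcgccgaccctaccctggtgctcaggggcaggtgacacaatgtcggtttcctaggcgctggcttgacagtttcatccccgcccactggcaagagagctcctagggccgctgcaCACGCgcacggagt
Hpgds, chr6:65144731-65144980, minus strand: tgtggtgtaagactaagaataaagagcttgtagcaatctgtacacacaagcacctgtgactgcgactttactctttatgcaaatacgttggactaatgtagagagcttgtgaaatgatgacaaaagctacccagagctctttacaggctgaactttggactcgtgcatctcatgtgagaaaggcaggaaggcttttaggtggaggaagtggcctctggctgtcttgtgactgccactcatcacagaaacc
The searched window was 250 bases before and 50 after the start, and 8 of the 10 genes had an entry (not Alox5ap or Alox15). The gene positions given below are from another annotation, GENCODE, whose starts can differ. There Ptges, on the minus strand, starts at 30929863, so the window shown lies inside that gene. The Hpgds window partly overlaps its gene, which starts at 65144908. GCGTG began at -98 in Ptgs2, at -165 in Ptges and, on the other strand, at -14 in Hpgd, and it was not in the windows of Hpgds, Ptgs1, Alox5, Lta4h or Ltc4s. Of all 32851 promoter windows of the same length, 32.4% held it. ACGTG, the core of the hypoxia response element, lay on both strands just after the start of Ptgs2, at 17 and 18, where the matches overlap each other. TGACG, a part of the cAMP response element, lay at 14 in Ptgs2 on the other strand. ACGTG and TGACG were searched on both strands, ACGTG differs from GCGTG only in its first base, and they were found in 19.6% and 20.8% of all windows. A match is a string of letters and does not show that a factor binds there.

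All 10 genes passed the filter on low values and all 10 were called between control TAM and resident macrophages, 6 higher and 4 lower, in a comparison in which 77.1% of all genes tested were called (39.0% higher and 38.1% lower). For each of the 10 the libraries of one group lay wholly above or below those of the other, as they did for 73.9% of all genes. The median log2 change was 0.23 over the 10 genes and 0.00 over all genes. A count of calls therefore says little here, and the genes are told apart by the size of their change. Ptges is counted among the higher genes in both comparisons with resident macrophages. It passed the filter only through the tumour libraries, where it is high, so these calls are not independent of the filter. With all libraries scaled to the same summed FPKM, the median change over all genes became 0.18, and 65.9% of calls were higher against 50.6% as deposited, so the size of small changes depends on the scaling. The direction of the 10 changes did not turn under that scaling. All 10 were also called between cKO-labelled TAM and resident macrophages, 6 higher and 4 lower, with no overlap. Over all genes 77.4% were called there (40.2% higher and 37.2% lower), 75.5% had no overlap, and the share of calls that were higher was 52.0% as deposited and 61.6% when rescaled. Between cKO-labelled and control TAM 5 of the 10 were called, 2 higher and 3 lower, where 39.6% of all genes were called (20.5% higher and 19.1% lower). There was no overlap for 6 of the 10, against 51.4% of all genes. When rescaled, 9 of the 10 were called, 7 of them lower, and 32.9% of the calls over all genes were then higher against 51.8% as deposited.

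**Figure D1:**
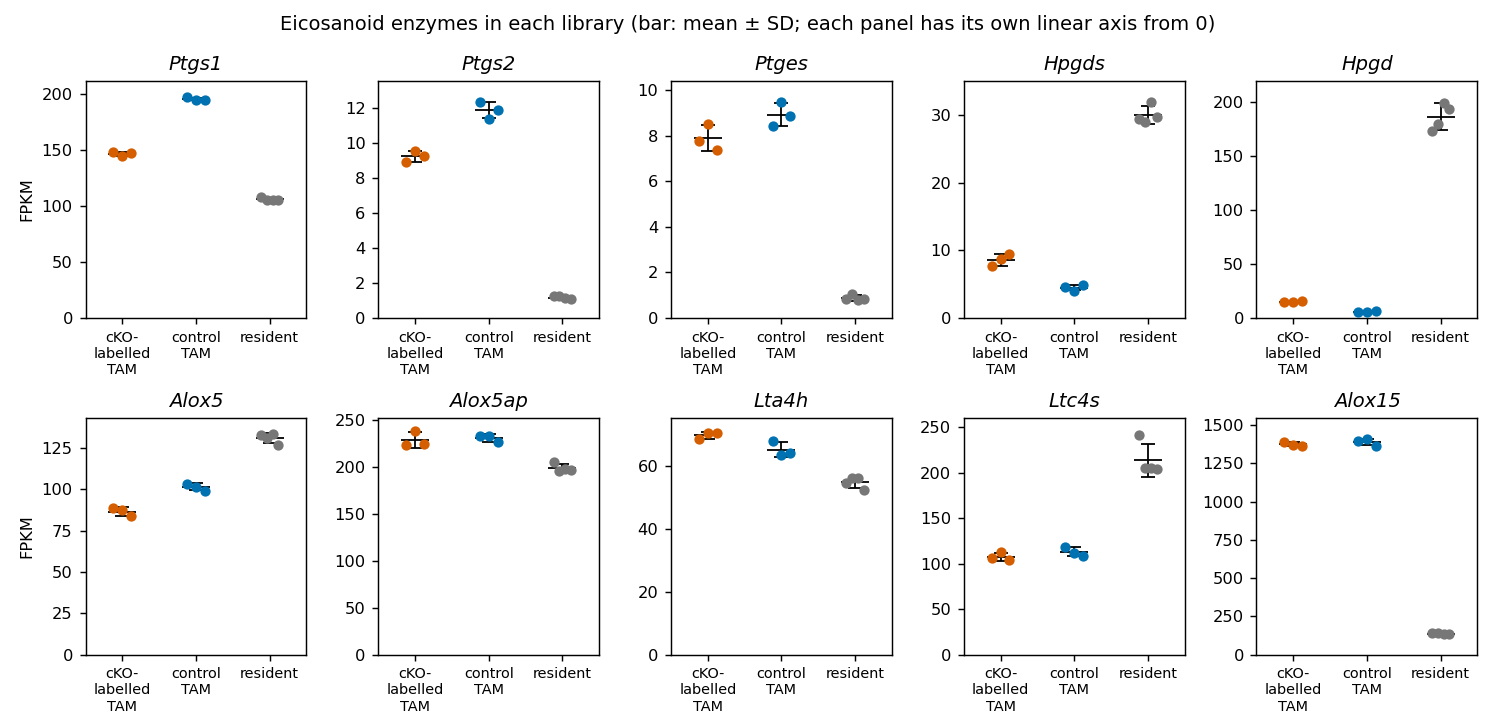
FPKM of the 10 enzyme genes in each library (points), with mean ± SD (bars), for 3 cKO-labelled TAM, 3 control TAM and 4 resident libraries, on linear axes from 0 that differ between panels. Ptgs2, Ptges and Alox15 stand about 10 times higher in control TAM than in the resident libraries, Hpgd and Hpgds far lower, and 1 resident library stands above the others for Ltc4s.

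The cyclooxygenases were both higher in tumour macrophages than in resident ones, and both were lower in cKO-labelled than in control TAM. Ptgs1 (ENSMUSG00000047250, GRCm38 chromosome 2, 36230426 to 36252272, plus strand), the constitutive isoform, was at 149, 145 and 147 FPKM in cKO-labelled TAM, 197, 195 and 195 FPKM in control TAM, and 108, 105, 106 and 105 FPKM in resident macrophages. The 3 groups were fully separated, with control TAM highest and resident macrophages lowest. The log2 change was -0.41 ± 0.03 between cKO-labelled and control TAM (adjusted p = 4.45e-08) and 0.88 ± 0.03 between control TAM and resident macrophages (adjusted p = 7.28e-14). Ptgs2 (ENSMUSG00000032487, chromosome 1, 150100031 to 150108227, plus strand), the isoform induced in inflammation, was at 8.93, 9.54 and 9.25 FPKM in cKO-labelled TAM, 12.3, 11.4 and 11.9 FPKM in control TAM, and 1.24, 1.24, 1.11 and 1.08 FPKM in resident macrophages. Its groups also lay apart in the same order. The change was -0.33 ± 0.07 between cKO-labelled and control TAM (adjusted p = 0.00138) and 2.57 ± 0.06 between control TAM and resident macrophages (adjusted p = 3.03e-15), a mean 10.2 times as high. Ptgs2 rested on at most 77.0 recovered reads in a resident library. In every library Ptgs1 stood above Ptgs2 per length. The ratio of their FPKM averaged 15.9 ± 0.727 in cKO-labelled TAM, 16.5 ± 0.566 in control TAM (SD, n = 3 each) and 91.2 ± 6.26 in resident macrophages (SD, n = 4), so the induced isoform held a larger part of cyclooxygenase RNA in both tumour groups. These ratios are a description, with no test.

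Ptges (ENSMUSG00000050737, chromosome 2, 30889471 to 30929863, minus strand), the inducible prostaglandin E synthase, was at 7.79, 8.53 and 7.40 FPKM in cKO-labelled TAM, 8.44, 9.48 and 8.89 FPKM in control TAM, and 0.846, 1.06, 0.794 and 0.821 FPKM in resident macrophages. It passed the filter through the tumour libraries, since only 1 resident library reached 1 FPKM, where 35.0 to 45.0 reads per library lay behind it. The log2 change of control TAM over resident macrophages was 2.40 ± 0.08 (adjusted p = 6.22e-14). The cKO-labelled and control TAM values overlapped, and the change of -0.16 ± 0.08 was not called (adjusted p = 0.133). It was called lower when rescaled (adjusted p = 0.0304) and by limma voom on the recovered reads (adjusted p = 0.0277).

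Hpgds (ENSMUSG00000029919, chromosome 6, 65117293 to 65144908, minus strand), the haematopoietic prostaglandin D synthase, ran the other way. It was at 7.70, 8.69 and 9.43 FPKM in cKO-labelled TAM, 4.63, 4.01 and 4.86 FPKM in control TAM, and 29.4, 28.9, 32.0 and 29.7 FPKM in resident macrophages. The lowest cKO-labelled value lay above the highest control TAM value, and both groups lay far under the resident one. Its change was 0.80 ± 0.08 between cKO-labelled and control TAM (adjusted p = 8.26e-07) and -2.50 ± 0.07 between control TAM and resident macrophages (adjusted p = 1.55e-14). The defining mast cell genes Cpa3, Cma1, Mcpt4 and Tpsb2 had no row in the table used here, and of 10 mast cell markers only Kit and Hdc, the histamine-forming enzyme, had one. Kit was at 1.13 FPKM or less in every library and fell under the filter. Its mean was 0.980 FPKM in cKO-labelled TAM, 0.343 FPKM in control TAM and 0.145 FPKM in resident macrophages. Hdc was at 12.5, 11.7 and 11.7 FPKM in cKO-labelled TAM, 12.7 FPKM in each control TAM library and a mean of 0.448 FPKM in resident macrophages, where Hpgds was highest. The part of mast cells in the values of Hpgds was not tested.

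Hpgd (ENSMUSG00000031613, chromosome 8, 56294585 to 56321043, plus strand), the dehydrogenase that inactivates prostaglandins, had the largest changes of the 10 genes in all 3 comparisons. It was at 14.4, 14.5 and 15.8 FPKM in cKO-labelled TAM, 5.26, 5.69 and 5.97 FPKM in control TAM, and 173, 179, 199 and 194 FPKM in resident macrophages. In control TAM it was thus at 0.0303 of the resident mean, and in cKO-labelled TAM at 0.0800 of it. The change was 1.26 ± 0.06 between cKO-labelled and control TAM (adjusted p = 2.64e-10), a mean 2.64 times as high, and -4.82 ± 0.06 between control TAM and resident macrophages (adjusted p = 1.86e-19). Between cKO-labelled TAM and resident macrophages it was -3.56 ± 0.06 (adjusted p = 1.23e-17), and these comparisons share libraries. By rank of mean FPKM among the 12535 genes, Hpgd stood at position 3917 in cKO-labelled TAM, 6544 in control TAM and 308 in resident macrophages. The ratio of Ptges to Hpgd within a library was 0.468 to 0.588 in cKO-labelled TAM, 1.49 to 1.67 in control TAM and 0.00399 to 0.00593 in resident macrophages. It leaves out Ptges2 and Ptges3, which also encode prostaglandin E synthases. Ptges3 averaged 12.7 FPKM in cKO-labelled TAM, 7.96 FPKM in control TAM and 8.22 FPKM in resident macrophages, and Ptges2 8.37, 6.19 and 6.40 FPKM. Both were called higher in cKO-labelled than in control TAM (log2 changes 0.61 and 0.38, adjusted p = 0.000273 and 0.000238). Neither was called between control TAM and resident macrophages.

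Markers of other cells moved with Hpgd and Hpgds. The 12 acinar enzyme genes listed summed to 302 to 313 FPKM in the cKO-labelled libraries, 70.2 to 73.4 FPKM in control TAM and 26502 to 28134 FPKM in resident macrophages. All 11 tested were called higher in cKO-labelled than in control TAM and lower in control TAM than in resident macrophages. Over all genes 20.5% were called higher in the first comparison and 38.1% lower in the second. The B cell list (5 of 7 genes in the table) summed to 238 to 242 FPKM in cKO-labelled TAM, 85.5 to 94.5 FPKM in control TAM and 891 to 909 FPKM in resident macrophages, and 3 of its 5 genes were called higher in cKO-labelled than in control TAM. Of these 5, Jchain and Mzb1 reached 1 FPKM only in resident libraries. Dendritic cell markers (4 of 7 in the table) summed to a mean of 46.6 FPKM in cKO-labelled TAM, 20.3 FPKM in control TAM and 124 FPKM in resident macrophages. Most of this was Cd209a, with a mean of 43.7 FPKM in cKO-labelled TAM, 17.7 FPKM in control TAM and 118 FPKM in resident macrophages. Of the 3 tested, 2 were called higher in cKO-labelled than in control TAM and 1 was not called. The dendritic cell markers Xcr1 and Clec9a had no row in the table used here. The part of these cells in the values of Hpgd and Hpgds was not tested.

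**Figure D2:**
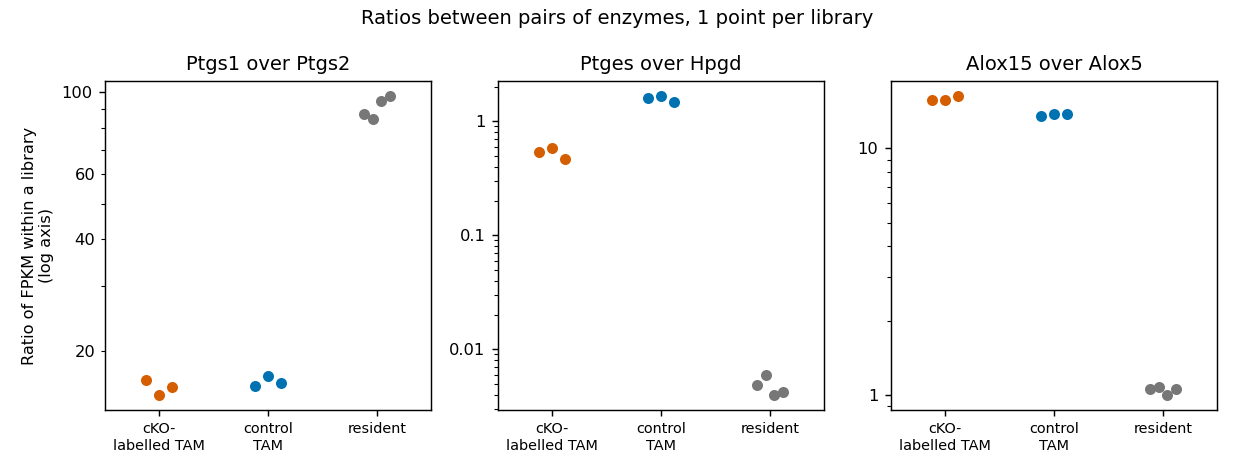
Ratio of FPKM of 2 genes within each library (points), on log axes, for Ptgs1 over Ptgs2, Ptges over Hpgd and Alox15 over Alox5. The ratio of Ptges to Hpgd is highest in control TAM (1.49 to 1.67), lower in cKO-labelled TAM (0.468 to 0.588) and under 0.006 in each resident library.

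Among the leukotriene genes, Alox5 and Ltc4s were lower in tumour macrophages, and Alox5ap and Lta4h slightly higher. Alox5 (ENSMUSG00000025701, chromosome 6, 116410077 to 116461178, minus strand) was at 88.7, 87.2 and 83.8 FPKM in cKO-labelled TAM, 103, 102 and 99.2 FPKM in control TAM, and 133, 131, 133 and 127 FPKM in resident macrophages. The groups were fully separated, with cKO-labelled TAM lowest. The change was -0.23 ± 0.04 between cKO-labelled and control TAM (adjusted p = 0.000135) and -0.37 ± 0.03 between control TAM and resident macrophages (adjusted p = 4.85e-08). It was the only one of the 5 lipoxygenase branch genes called between the TAM groups, except when rescaled, where Alox5ap, Ltc4s and Alox15 were called lower, and without control TAM replicate 1, where Lta4h was called higher.

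Alox5ap (ENSMUSG00000060063, chromosome 5, 149264767 to 149288153, plus strand) was at 223, 239 and 225 FPKM in cKO-labelled TAM, 233, 233 and 226 FPKM in control TAM, and 205, 196, 198 and 197 FPKM in resident macrophages. The TAM groups overlapped (change -0.01 ± 0.03, adjusted p = 0.782), and both lay above the resident libraries. The rise in control TAM over resident macrophages was only 0.21 ± 0.03 (adjusted p = 1.49e-05). It was 0.07 under quantile normalization, and that of cKO-labelled TAM over resident macrophages, 0.20 as deposited, was then not called (0.02, adjusted p = 0.623). Lta4h (ENSMUSG00000015889, chromosome 10, 93453411 to 93484875, plus strand) averaged 69.9 ± 1.07 FPKM in cKO-labelled TAM, 65.3 ± 2.34 FPKM in control TAM (SD, n = 3 each) and 54.9 ± 1.77 FPKM in resident macrophages (SD, n = 4). The change was 0.25 ± 0.04 between control TAM and resident macrophages (adjusted p = 2.07e-05), and that of 0.10 ± 0.04 between the TAM groups was not called (adjusted p = 0.0698).

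Ltc4s (ENSMUSG00000020377, chromosome 11, 50236461 to 50238616, minus strand) was at 106, 112 and 104 FPKM in cKO-labelled TAM, 119, 112 and 109 FPKM in control TAM, and 241, 205, 205 and 204 FPKM in resident macrophages. Resident replicate 1 stood above the other resident libraries, and all of these lay above both TAM groups. The change was -0.91 ± 0.05 between control TAM and resident macrophages (adjusted p = 2.15e-10), and it was -0.07 ± 0.06 between the TAM groups, whose values overlapped (adjusted p = 0.328). The 2 enzymes that compete for leukotriene A4 stood in a different ratio, with Ltc4s at 1.48 to 1.59 times Lta4h in cKO-labelled TAM, 1.69 to 1.76 times in control TAM and 3.63 to 4.42 times in resident macrophages. Exons of Ltc4s share 268 bases with the antisense gene Gm26542, those of Alox5ap 189 bases with the antisense gene Gm19719, and those of Ptgs1 148 bases with Gm43621. The libraries carry no strand information, so reads of these partners cannot be told apart.

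Alox15 (ENSMUSG00000018924, chromosome 11, 70344152 to 70352031, minus strand) was the most abundant of the 10 genes in the tumour. It was at 1389, 1371 and 1366 FPKM in cKO-labelled TAM, 1396, 1406 and 1366 FPKM in control TAM, and 139, 141, 134 and 134 FPKM in resident macrophages. The TAM groups overlapped and both lay about 10 times above the resident libraries. The change was 3.33 ± 0.03 between control TAM and resident macrophages (adjusted p = 1.90e-21) and -0.01 ± 0.03 between cKO-labelled and control TAM (adjusted p = 0.720). Its mean ranked 40 among all genes in cKO-labelled TAM, 39 in control TAM and 450 in resident macrophages. It made up 66.9% ± 0.486 of the summed FPKM of the 10 genes in cKO-labelled TAM, 65.3% ± 0.304 in control TAM (SD, n = 3 each) and 12.9% ± 0.396 in resident macrophages (SD, n = 4). Alox15 stood at 15.7 to 16.3 times Alox5 in cKO-labelled TAM, 13.5 to 13.8 times in control TAM and 1.00 to 1.07 times in resident macrophages.

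Markers of both cell types known for Alox15 differed between tumour and healthy pancreas, most but not all in its direction. Of the 9 other large peritoneal macrophage markers, 8 were called higher in control TAM than in resident libraries and 1, Timd4, lower. Their sum was 1245 to 1259 FPKM in cKO-labelled TAM, 1462 to 1482 FPKM in control TAM and 570 to 580 FPKM in resident macrophages, led by Serpinb2 and Cd5l in control TAM. Gata6, the transcription factor that defines these cells, had a mean of 9.78 FPKM in cKO-labelled TAM, 15.6 FPKM in control TAM and 1.32 FPKM in resident macrophages. The eosinophil markers in the table (5 of 8) summed to 132 to 133 FPKM in cKO-labelled TAM, 88.7 to 91.7 FPKM in control TAM and 45.7 to 59.5 FPKM in resident macrophages. The most abundant, Ccr3 and Prg2, stood at 35.8 and 35.0 FPKM in cKO-labelled TAM and at 21.3 and 34.4 FPKM in control TAM, while Prg2 was listed at 0 in each resident library. Ear2 went against Alox15, with a mean of 28.5 FPKM in cKO-labelled TAM, 14.9 FPKM in control TAM and 50.7 FPKM in resident macrophages, and it made up nearly all of the resident sum. The other 4, Ccr3, Prg2, Siglecf and Il5ra, were under 1 FPKM in each resident library and passed the filter through the TAM groups. Neutrophils also express Alox5 and Alox5ap. Of their 9 tested markers, 8 were under 1 FPKM in each resident library and passed the filter only through the TAM groups, so that their calls between tumour and resident libraries are not counted here, and the other, Csf3r, was not called between control TAM and resident macrophages. The neutrophil markers in the table summed to 1505 to 1666 FPKM in cKO-labelled TAM, 1251 to 1277 FPKM in control TAM and 33.6 to 35.2 FPKM in resident macrophages, led by Retnlg, with a mean of 1420 FPKM in cKO-labelled TAM, 1166 FPKM in control TAM and 0.332 FPKM in resident macrophages. Between the TAM groups, where the values of Alox15 overlapped, 1 of the 9 peritoneal markers (Prg4) was called higher and 6 lower in cKO-labelled TAM. Of the 5 eosinophil markers 4 were called higher and 0 lower there, and of the 9 neutrophil markers 6 higher and 1 (Ngp) lower, against 20.5% higher and 19.1% lower over all genes. Markers of epithelial cells (8 of 9 in the table) summed to 271 to 284 FPKM in cKO-labelled TAM, 269 to 277 FPKM in control TAM and 8.90 to 10.5 FPKM in resident macrophages. Platelet markers (3 of 7) summed to at most 6.63 FPKM and T and NK cell markers (8 of 8) to at most 29.0 FPKM in any library. The part of these cells in the level of Alox15 was not tested.

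**Figure D3:**
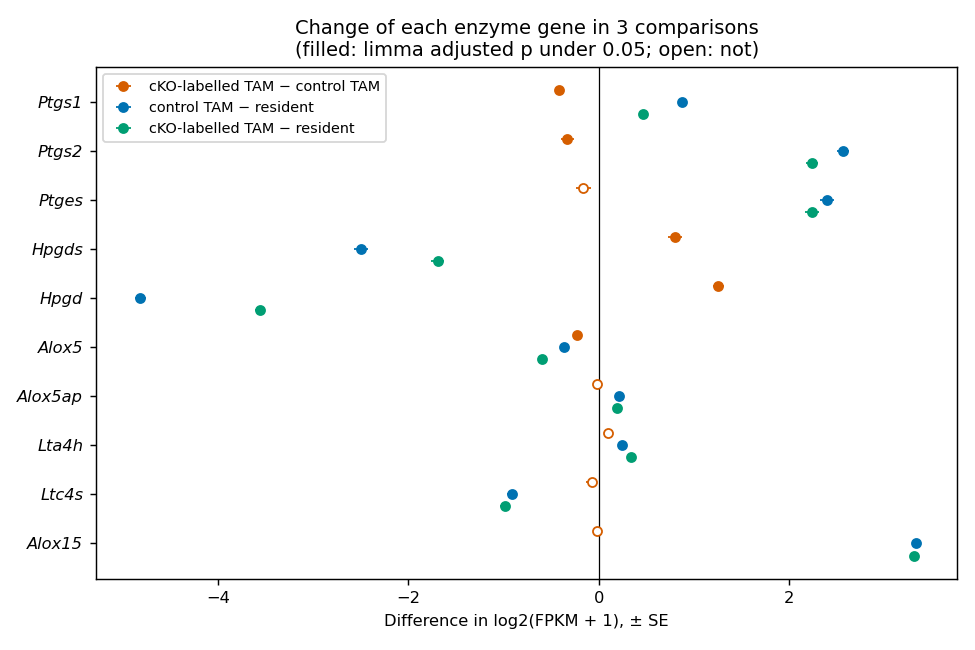
Difference in log2(FPKM + 1) ± SE of each of the 10 genes in the 3 comparisons, with filled points at an adjusted p under 0.05. Changes between cKO-labelled and control TAM span -0.41 to 1.26, and those between control TAM and resident macrophages, which share the control TAM libraries, -4.82 to 3.33.

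Ordered by FPKM, which is per length, the genes stood in control TAM as Alox15, Alox5ap, Ptgs1, Ltc4s, Alox5, Lta4h, Ptgs2, Ptges, Hpgd and Hpgds, and the values of neighbours in this order did not overlap. In cKO-labelled TAM the first 6 were in the same order, followed by Hpgd, Ptgs2, Hpgds and Ptges, where Hpgds overlapped with both Ptgs2 and Ptges. In resident macrophages Ltc4s, Alox5ap and Hpgd came first and could not be separated from neighbour to neighbour, followed by Alox15, Alox5, Ptgs1, Lta4h, Hpgds, Ptgs2 and Ptges. Alox15 and Alox5 were close there, at 134 to 141 and 127 to 133 FPKM.

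The genes whose pattern over the 10 libraries was most like that of 3 of the enzymes were found by the root mean square difference of log2(FPKM + 1), each gene centred on its own mean, among 10441 tested genes. For Hpgd they were Reg1, a secreted product of acinar cells (difference 0.10), Epor, the erythropoietin receptor (0.17), and Fcrls, an Fc receptor-like gene of macrophages (0.17). Reg1 had a mean of 32.5 FPKM in cKO-labelled TAM, 13.3 FPKM in control TAM and 395 FPKM in resident macrophages. For Alox15 they were Saa3, an acute-phase protein (0.04), Lrg1, a leucine-rich secreted glycoprotein (0.06), and Adamdec1, a metalloproteinase-like gene (0.08). For Ptgs2 they were the glycolytic genes Ldha (0.06) and Pkm (0.06) and the transcription factor Mxd1 (0.07). Likeness of this kind describes group levels in 10 libraries.

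Beyond the 10 enzymes, 58 genes of arachidonate release, other eicosanoid enzymes, transport and receptors were listed, of which 42 were in the table and 38 were tested. Between cKO-labelled and control TAM 14 of these were higher, 9 lower and 15 not called, with a median log2 change of -0.00278 against 0.01 over all genes. Between control TAM and resident macrophages 15 were higher, 15 lower and 8 not called, with a median of -0.02 against 0.00. Calls made up 23 of the 38 in the first comparison, where 39.6% of all genes were called, and 30 of the 38 in the second, where 77.1% were. These counts include genes that reached 1 FPKM only in the group or groups where they were high, so their calls are not independent of the filter. They are Ggt1 in resident macrophages, Ptger3 in control TAM, and Alox12e and Mgst2 in both TAM groups. Pla2g2d and Dpep1 reached 1 FPKM in cKO-labelled TAM and resident macrophages but in no control TAM library. Of 7 phospholipase A2 genes, 3 (Pla2g2d, Pla2g15 and Pla2g7) were called higher and 1 (Pla2g4a) lower in cKO-labelled than in control TAM. Over all genes 20.5% were called higher and 19.1% lower there. Pla2g4a, the cytosolic phospholipase that frees arachidonic acid, was lower in cKO-labelled than in control TAM (38.3 ± 2.03 and 47.4 ± 2.63 FPKM, SD, n = 3 each, log2 change -0.30, adjusted p = 0.00124) while control TAM exceeded resident macrophages (16.9 ± 1.18 FPKM, n = 4, log2 change 1.44, adjusted p = 1.44e-12). The secreted Pla2g2d averaged 2.38 ± 0.382 FPKM in cKO-labelled TAM, 0.415 ± 0.0488 FPKM in control TAM and 71.4 ± 1.11 FPKM in resident macrophages. Its log2 change between control TAM and resident macrophages was -5.68 (adjusted p = 3.82e-19).

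Of the 7 other prostanoid synthase genes tested, Ptgis, the prostacyclin synthase, differed most between tumour and healthy pancreas. It averaged 47.7 ± 1.87 FPKM in cKO-labelled TAM, 55.9 ± 1.49 FPKM in control TAM and 4.68 ± 0.234 FPKM in resident macrophages. The log2 change between control TAM and resident macrophages was 3.33 (adjusted p = 3.20e-18). Fibroblasts are also known to express Ptgis. The fibroblast markers in the table (8 of 9) summed to 123 to 128 FPKM in cKO-labelled TAM, 162 to 165 FPKM in control TAM and 37.5 to 41.2 FPKM in resident macrophages. The single markers were mixed, as 3 of the 6 tested were called higher and 2 lower in cKO-labelled than in control TAM. Over all genes 20.5% were called higher and 19.1% lower there. The part of fibroblasts in the values of Ptgis was not tested. Ptgir, the receptor of prostacyclin, averaged 9.19 ± 0.556 FPKM in cKO-labelled TAM and 14.7 ± 0.793 FPKM in control TAM (log2 change -0.62, adjusted p = 2.77e-05), against 7.35 ± 0.890 FPKM in resident macrophages. Ptger2 and Ptger4, the prostaglandin E2 receptors that raise cAMP, were not called in any of the 3 comparisons, with means for Ptger4 of 14.3 FPKM in cKO-labelled TAM, 14.7 FPKM in control TAM and 13.9 FPKM in resident macrophages. Tbxas1, the thromboxane synthase, lay between 107 and 130 FPKM in all 10 libraries. It was called lower in cKO-labelled than in control TAM (log2 change -0.20, adjusted p = 0.000475). Between control TAM and resident macrophages it was called higher (0.13, adjusted p = 0.00314).

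On the leukotriene side, Ltb4r1, the high-affinity receptor of leukotriene B4, averaged 76.4 ± 1.11 FPKM in cKO-labelled TAM, 80.7 ± 2.74 FPKM in control TAM and 17.7 ± 1.45 FPKM in resident macrophages. It was called between control TAM and resident macrophages (log2 change 2.13, adjusted p = 2.60e-15) and not between the TAM groups (adjusted p = 0.296). Cyp4f18, a cytochrome P450 that oxidises leukotriene B4, averaged 445 ± 12.2 FPKM in cKO-labelled TAM and 319 ± 10.2 FPKM in control TAM (log2 change 0.48, adjusted p = 1.84e-08), against 129 ± 1.07 FPKM in resident macrophages. Of the enzymes that trim leukotriene C4 further, Ggt5 and Dpep1 were lower in control TAM than in resident macrophages, while Dpep2 was higher. Ggt1 averaged 0.155 ± 0.0846 FPKM in control TAM and 5.72 ± 0.416 FPKM in resident macrophages, and it passed the filter only through the resident libraries. Dpep1 averaged 1.18 ± 0.0955 FPKM in cKO-labelled TAM and 0.294 ± 0.195 FPKM in control TAM (log2 change 0.76, adjusted p = 5.33e-05). Dpep1 was under 1 FPKM in each control TAM library and passed the filter through cKO-labelled TAM and resident macrophages, where it was higher. Its calls against control TAM are therefore not independent of the filter. Fpr2, a receptor of lipoxins among other ligands, was lower in cKO-labelled than in control TAM (log2 change -0.28, adjusted p = 0.00835), and Fpr1, a receptor of formylated peptides, was higher (0.24, adjusted p = 5.99e-05).

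**Figure D4:**
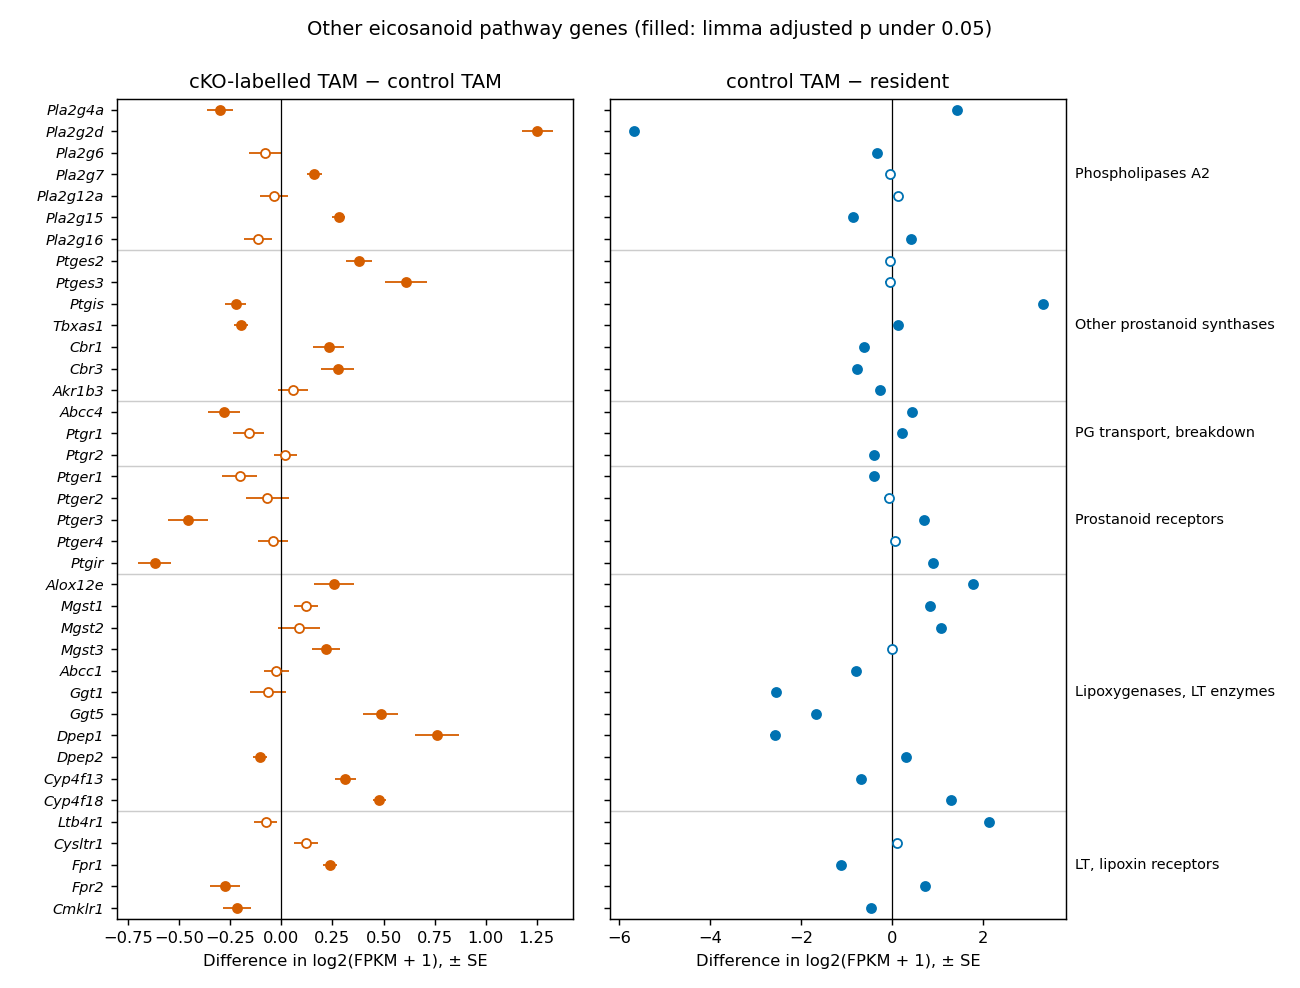
Difference in log2(FPKM + 1) ± SE of 38 other eicosanoid pathway genes between cKO-labelled and control TAM and between control TAM and resident macrophages, grouped by role, with filled points at an adjusted p under 0.05 and a different horizontal scale in each panel. Pla2g2d and Ptgis have the lowest and highest changes between control TAM and resident macrophages (-5.68 and 3.33).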

How the data were processed

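The authors deposited 1 table of FPKM, with 1 column per library and 12535 genes, and all 10 columns were matched to samples by title. The submitters' processing notes list STAR and edgeR, with mm10 and GRCm38 as builds. How gene length and library size entered the values, and which genes were dropped, is not given in the sources used here. The labels' protocols give 2 RNA extraction kits without saying which library got which. A kit difference between groups was not tested. RNA was amplified with a low-input kit, and the libraries carry no strand information.

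Genes with at least 1 FPKM in 3 of the 10 libraries were tested with limma 3.58.1 (R 4.3.3, variance trend) on log2(FPKM + 1), in 1 fit with 3 group means and 7 residual degrees of freedom, adjusted by Benjamini-Hochberg at 0.05. The fit was tested on simulated data. This scale understates the change of low genes. FPKM are not counts, so no count test was the main one. With the longest GENCODE M21 transcript as length, 85.7% to 87.0% of values between 1 and 200 reads came out whole within 0.05, which gave the depth; of the 10 genes, 4 came out whole in every library (Ptgs2, Ptges, Hpgds and Ltc4s), and reads are given for Ptgs2 and Ptges only. Over the 12 same-group pairs the squared difference was 1.81 to 3.27 times counting noise, so no library was taken for a copy of another.

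The genes of the set and all lists were chosen with earlier results of these data known. Other pathway genes are named by size of change (up to 3 per list and comparison, at least 5 FPKM in the higher group). Ptger2, Ptger4, Tbxas1, Cd209a, Gata6, Timd4, Ear2, Siglecf, Il5ra, Csf3r, S100a8, S100a9, Prg4, Ngp, Jchain, Mzb1, Ptger3, Alox12e, Mgst2, Dpep2, Csf1r, Adgre1, Cd68, Itgam, Mcpt4, Cpa3, Cma1, Tpsb2, Xcr1, Clec9a and the values of named genes in another comparison were chosen after their values were seen. Promoters are from RefSeq (GRCm38.p6), positions from GENCODE M21 (GRCm38, 1-based). The replicate numbers are not stated to pair libraries. The alternatives were other pseudocounts, filters, scalings and fits, a replicate block and leaving out each library; limma voom on recovered reads was added after seeing the data and called 4771 genes between cKO-labelled and control TAM, 8564 between control TAM and resident macrophages and 8840 between cKO-labelled TAM and resident macrophages.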

Additional observations from a re-analysis of the deposited data

Results flagged for a closer look

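Ltc4s stood at 241 FPKM in resident replicate 1, while the other 3 resident libraries lay between 204 and 205 FPKM. The gap to the nearest library was 0.986 of the range of the group, above Dixon's 95% critical value for 4 libraries. Of the 10 genes, 1 passed this limit, and chance alone passes about 1 in 20. All 4 resident values lay above those of both TAM groups, so the direction of the change does not rest on that library.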

How the results depend on the processing

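Over 21 alternatives, 623 of 630 recomputed changes of the 10 genes kept their direction where called and their side of the threshold. Between cKO-labelled and control TAM 5 of the 10 genes were called, and 9 when each library was rescaled to a common total, where Ptges (log2 change -0.23), Alox5ap (-0.09), Ltc4s (-0.15) and Alox15 (-0.09) were added. The median change over all genes between cKO-labelled and control TAM was -0.05 after rescaling and 0.01 as deposited. The other exceptions were Ptges with limma voom on recovered reads (-0.20), Lta4h without control TAM replicate 1 (0.13, called higher) and Alox5ap between cKO-labelled TAM and resident macrophages under quantile normalization (0.02, not called). Leaving out 1 library at a time gave 5 to 6 of the 10 genes called between the TAM groups and 10 of 10 in the comparisons with resident macrophages. It gave 3496 to 4611 genes called over the whole table between the TAM groups, 8237 to 8559 between control TAM and resident macrophages and 8182 to 8646 between cKO-labelled TAM and resident macrophages, and 18 to 23, 30 to 31 and 30 to 33 other pathway genes. With the replicate number as a block, 5, 10 and 10 of the 10 genes were called and 4342, 8396 and 8437 genes overall. The correlation of the deviations of same-numbered libraries was between -0.06 and 0.11, so the numbers were not taken to pair libraries. The fold of Ptgs2 and Ptges, which are near 1 FPKM in resident macrophages, grew with a smaller pseudocount, to log2 changes of 3.24 for Ptgs2 and 3.21 for Ptges at 0.1, control TAM against resident macrophages.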
